A study of Mus musculus with 9 samples.

Results

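The expression of 50 mouse genes that are switched on by interferon was described in peritoneal macrophages stimulated with lipopolysaccharide (LPS), alone or together with ethanol (EtOH) or with a compound that the labels call CPZ. The 50 genes were named by symbol, and each symbol occurred once among the 55335 entries of the expression table. The rule that named them used no measured value, but they were chosen with earlier results of these data known. They were sorted by function into 11 subfamilies. All cells were precultured for 1 h in RPMI medium with antibiotics and then received 1 µg/mL LPS for 4 h. The first group received LPS only, the second LPS with 5% EtOH (LPS+EtOH), and the third LPS with 100 µM CPZ (LPS+CPZ). Each group held 3 libraries, and each library was made from RNA pooled from 3 samples. The strain, age and sex of the mice are not given in the sources used here, nor whether pools of different groups share animals. Every group carried LPS and no library without LPS was analysed here, so the values show the level of these genes under stimulation and not their induction.

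LPS, a component of the outer membrane of Gram-negative bacteria, is bound by the receptor TLR4, and one branch of TLR4 signalling, through the adaptors TRAM and TRIF and the kinase TBK1, leads macrophages to make interferon-beta. Secreted type I interferon binds the receptor chains IFNAR1 and IFNAR2 on the same and on neighbouring cells, and the kinases JAK1 and TYK2 then phosphorylate STAT proteins, among them STAT2, which join IRF9 to form the transcription factor ISGF3. ISGF3 binds the interferon-stimulated response element (ISRE) in the promoters of interferon-stimulated genes, whereas dimers of STAT proteins bind the gamma-activated sequence (GAS), so the products of these genes, which block viral replication, sense foreign nucleic acids or attack the vacuoles of intracellular pathogens, tend to appear together.

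The promoters of the genes were read from RefSeq (build GRCm38.p6), and 38 of the 50 members had an entry there, with 46 promoters of 300 bases, 250 before and 50 from the transcription start onward. The core of the ISRE was searched on both strands as GAAA followed by 2 bases of any kind and a second GAAA, so that a match on the other strand reads TTTC, 2 bases and TTTC. The GAS was searched as TTCNNNGAA, which is its own reverse complement. An ISRE core was present in 23 members (60.5% of those matched), against 3.44% of all 32851 promoters in the table and 3.99% of its 27025 genes. The GAS was present in 12 members (31.6%), against 8.3% of all promoters and 9.55% of genes. Of the 38 members, 7 held both motifs and 10 held neither, and 10 held 2 or more ISRE cores. The 35 ISRE matches began between 222 bases before and 32 bases after the start, and 17 of them lay wholly between 200 and 50 bases before it. A match is a description of letters in this window and not a bound site.

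The windows around the ISRE cores of 10 members are shown because neighbouring and duplicated genes carried alike arrangements. They were chosen after the values were seen, run 5′ to 3′ in the direction of the gene, and have the ISRE cores in capitals:
Ifit1, chr19:34640779-34640819, plus strand: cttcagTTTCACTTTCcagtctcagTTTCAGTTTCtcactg
Ifit3, chr19:34583367-34583422, plus strand: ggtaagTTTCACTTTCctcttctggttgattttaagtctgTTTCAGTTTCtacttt
Ifit3b, chr19:34607763-34607818, plus strand: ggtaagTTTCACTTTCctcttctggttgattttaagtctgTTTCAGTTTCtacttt
Isg15, chr4:156200869-156200902, minus strand: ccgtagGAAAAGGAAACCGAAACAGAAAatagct
Rsad2, chr12:26456557-26456578, minus strand: tccaacTTTCATTTTCagaaaa
Oas1a, chr5:120907524-120907551, minus strand: tctcggGAAATGGAAACTGAAAatctac
Oas1g, chr5:120887610-120887637, minus strand: tctcggGAAATGGAAACTGAAAatctac
Gbp2, chr3:142620598-142620619, plus strand: ttttagTTTCACTTTCactgtc
Irgm1, chr11:48871429-48871456, minus strand: tttcaaGAAATAGAAACCGAAActgatt
Bst2, chr8:71537581-71537608, minus strand: ttccagGAAAATGAAACTGAAAggctgc

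The windows of Ifit3 and Ifit3b were identical over 56 bases, and those of Oas1a and Oas1g over 28 bases. In Isg15, Oas1a, Oas1g, Irgm1 and Bst2 the cores overlapped, so that consecutive GAAA blocks were shared between matches, while in the IFIT genes the cores stood apart. The 250 bases before the start are shown for 3 further cases, the members with a motif that had, by log2 change in FPKM + 1, the largest fall with EtOH (Ifit2), the largest fall with CPZ (Ifit3) and the largest rise (Ifnar2). Capitals mark the GAS in Ifit2 and Ifnar2 and the ISRE cores in Ifit3:
Ifit2, chr19:34550444-34550693, plus strand: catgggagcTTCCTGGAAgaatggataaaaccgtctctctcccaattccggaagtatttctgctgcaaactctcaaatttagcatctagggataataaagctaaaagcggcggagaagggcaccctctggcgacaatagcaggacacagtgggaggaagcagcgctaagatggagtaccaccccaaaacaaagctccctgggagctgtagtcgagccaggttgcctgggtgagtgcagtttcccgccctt
Ifit3, chr19:34583279-34583528, plus strand: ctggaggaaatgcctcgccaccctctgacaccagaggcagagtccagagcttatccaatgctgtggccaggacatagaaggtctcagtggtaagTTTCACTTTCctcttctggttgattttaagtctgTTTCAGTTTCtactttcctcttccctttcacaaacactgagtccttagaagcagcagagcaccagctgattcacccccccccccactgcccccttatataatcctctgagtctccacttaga
Ifnar2, chr16:91372533-91372782, plus strand: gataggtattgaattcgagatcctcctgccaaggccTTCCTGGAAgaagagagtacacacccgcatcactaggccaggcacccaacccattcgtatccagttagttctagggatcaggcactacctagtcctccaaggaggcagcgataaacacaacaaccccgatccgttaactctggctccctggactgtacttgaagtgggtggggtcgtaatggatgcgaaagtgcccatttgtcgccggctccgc

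Ifit2 and Ifnar2 thus each held 1 GAS and no ISRE core in the promoter shown, and the responses of these genes to EtOH, given below, had opposite signs. The members with an ISRE core had a median log2 change of -1.18 (n = 23) in LPS+EtOH against LPS and those without one -0.84 (n = 15). For LPS+CPZ against LPS the medians were -1.70 and -1.57. These medians are given as a description without a test.

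**Figure D1:**
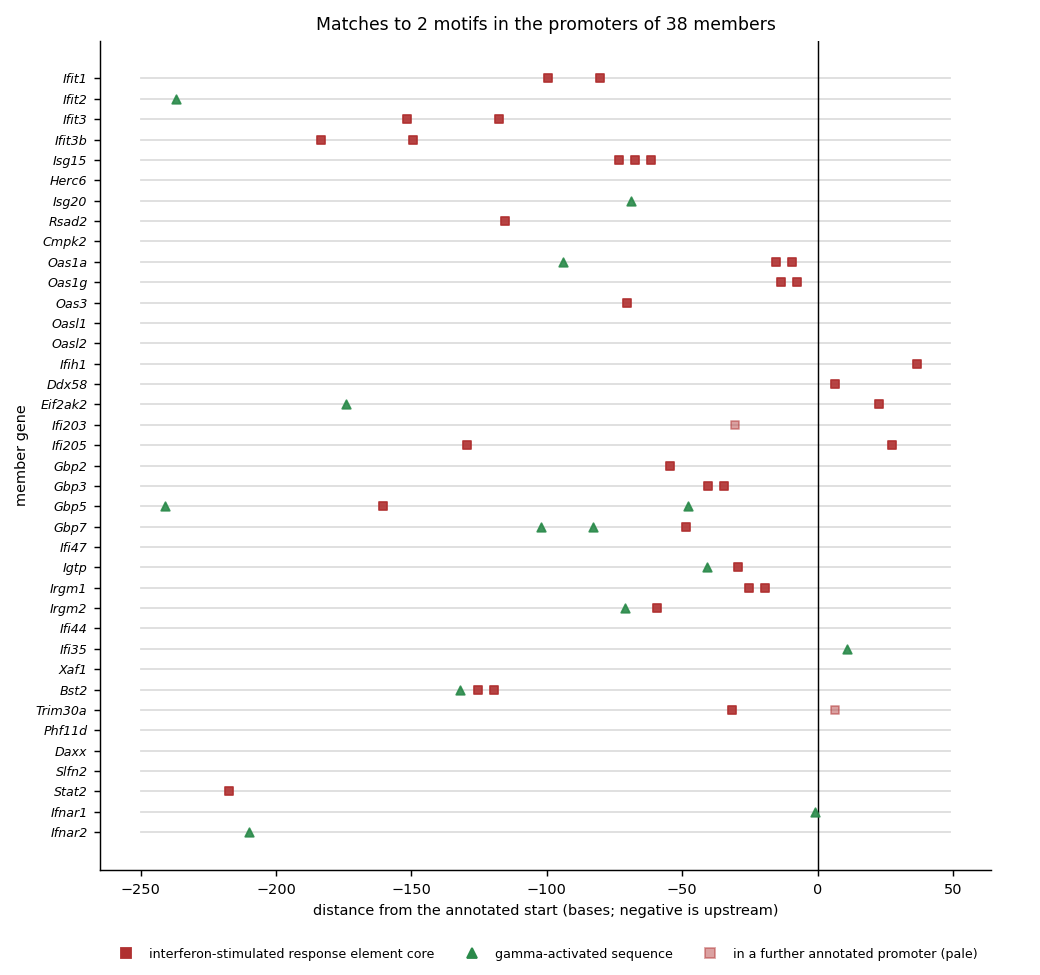
Centres of the ISRE core (squares) and GAS (triangles) matches in the promoters of 38 members, 1 row each, with the distance from the annotated start in bases on the x axis. Pale symbols are in a further promoter of the same gene. Of the 35 ISRE matches, 17 lie wholly between 200 and 50 bases before the start.

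The values are FPKM, fragments divided by transcript length and library size, and the number of fragments behind each value is not known from them. The 4 adult globin genes took 11.5 to 29.4% of all FPKM in the LPS libraries, 0.172 to 0.221% with EtOH and 0.0452 to 0.0972% with CPZ. Of the 7 macrophage markers, Mertk was listed below 0.5 FPKM in every library, while the others (such as Adgre1 and Csf1r) were detected in all 9, with a summed level of 1619 to 2105 FPKM with LPS, 2757 to 3061 with EtOH and 1112 to 1304 with CPZ. Cd14 and Lyz2 made up most of that sum with LPS and with EtOH, and on the deposited scale the markers went both ways. With EtOH Cd14, Cd68 and Itgam were called higher and Adgre1 and Lyz2 lower, and with CPZ Cd68 and Itgam were higher and Adgre1, Lyz2 and Cd14 lower. After the median-ratio scaling described below, 5 of the 6 tested were higher and 0 lower with EtOH. With CPZ 3 were then higher and 2 lower. Markers of other cells moved with the groups. The 7 neutrophil markers summed to 3703 to 5274 FPKM with LPS, 43287 to 47867 with EtOH and 6276 to 6749 with CPZ, most of it S100a8 and S100a9. All 7 were higher with EtOH, whereas with CPZ 3 were higher (S100a8, Retnlg and Ly6g) and 1 lower (Cxcr2), and Ly6g had its highest mean there (274 ± 31.1 FPKM, against 156 ± 12.3 with EtOH and 16.9 ± 4.79 with LPS). The 7 B cell markers summed to 1424 to 2053, 141 to 192 and 1191 to 1405 FPKM, most of it Ighm. All 7 were lower with EtOH (median log2 change -3.58), and with CPZ all but Ighm were lower (median -1.75), such as Ms4a1, which went from 54.0 ± 12.8 FPKM to 7.65 ± 1.62. Likewise the 7 T and NK cell markers summed to 29.3 to 35.7, 0.326 to 0.576 and 6.63 to 12.9 FPKM, and the 5 tested were lower with either agent. The part of these cells in the changes below was not tested, and in these bulk libraries fewer cells of a type and less RNA per cell cannot be told apart. All 3 groups also differed across the transcriptome. The median log2 change over the 11721 genes tested was -0.82 in LPS+EtOH against LPS, -0.33 in LPS+CPZ against LPS and 0.55 in LPS+CPZ against LPS+EtOH. Median-ratio scaling, which sets each library to a typical gene, brought these medians to -0.08, -0.08 and 0.08, and the results are therefore given on the deposited scale and, where a call or direction differs, also after that scaling.

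With EtOH, most interferon-stimulated genes were lower than with LPS alone, Ifit2, Ifit3 and Ifit3b by the largest log2 changes in FPKM + 1, while Slfn2 and both receptor chains were higher. On the deposited scale 35 of the 49 members tested (71.4%) were lower in LPS+EtOH than in LPS and 4 (8.16%) were higher, by limma on log2(FPKM + 1) with Benjamini-Hochberg adjusted p below 0.05. Ifi44 did not reach 1 FPKM in 3 libraries and was not tested. The order of the falls depends on that scale, since the ratio of the mean FPKM, in which low values weigh fully, was 172-fold lower for Phf11d, 43.1-fold for Ifit2, 28.8-fold for Ifi44 and 21.6-fold for Ifit3. Over all genes tested, 64.6% were lower and 19% were higher, so the share of lower members stood near the background. The members' median log2 change was -1.06 (-1.05 over all 50), beside -0.82 for all genes. The 3 EtOH libraries lay below the 3 LPS libraries without overlap for 33 members and above them for 3, beside 65.3% and 19.5% of all genes tested. After median-ratio scaling 17 members were lower and 10 higher, beside 42.1% and 37.8% of all genes, and the median was -0.044. The 17 were also lower on the deposited scale. They were the 4 IFIT genes, Herc6, Rsad2, Cmpk2, Mx1, Mx2, Ifih1, Eif2ak2, Ifi203, Ifi205, Gbp3, Iigp1, Bst2 and Phf11d. The 10 were Slfn2, Ifnar1, Ifnar2, Ifi27l2a, Gbp2, Ifi204, Ifi47, Igtp, Irgm1 and Rtp4.

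With CPZ every one of the 11 subfamilies held members that were lower than with LPS alone, and no member was higher. In LPS+CPZ against LPS, 42 of 49 members (85.7%) were lower and 0 were higher (limma adjusted p), and 0 were higher at an unadjusted p below 0.05. Over all genes tested 48.4% were lower and 20.7% were higher. The 7 members that did not pass were Oasl1, Gbp4, Iigp1, Irgm1, Bst2, Slfn2 and Ifnar2. The median log2 change was -1.75, beside -0.33 for all genes, and the CPZ libraries lay below the LPS libraries without overlap for 42 of the 50 members and above them for 0, beside 50.7% and 22.3% of all genes tested. After median-ratio scaling 38 members were lower and 0 higher, beside 34.1% and 27.5% of all genes, with a median of -1.43. The comparisons of EtOH and of CPZ with LPS share the 3 LPS libraries, so their values are set side by side and no relation between them was computed.

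**Figure D2:**
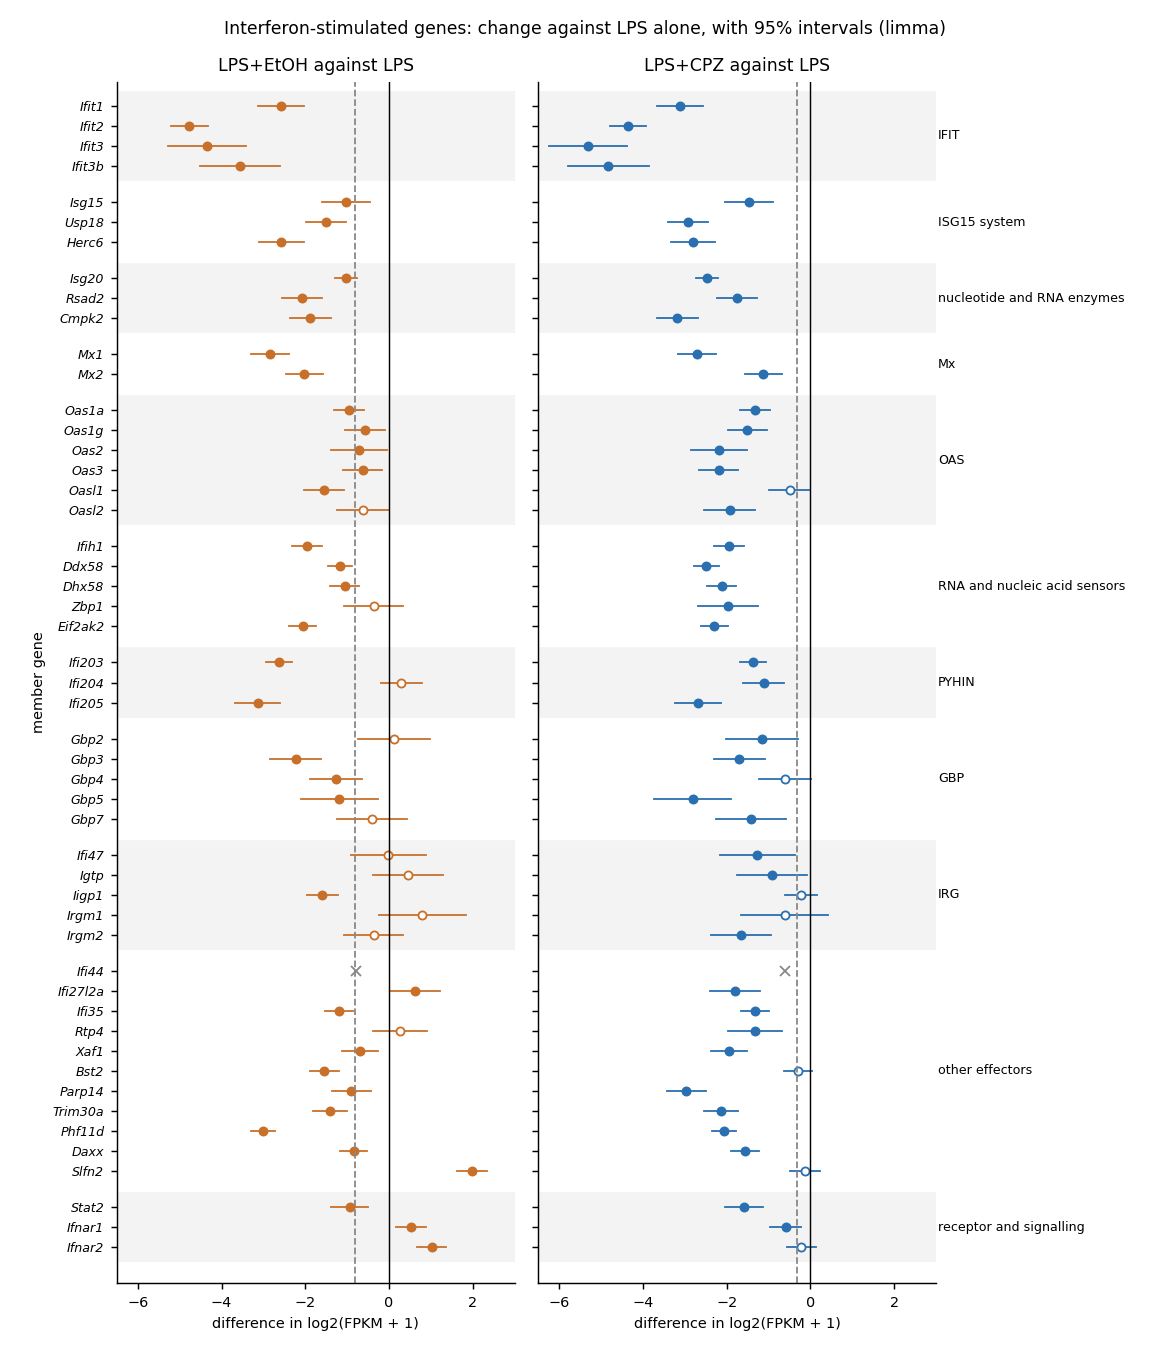
Log2 change in FPKM + 1 against LPS alone, with 95% intervals from limma, for each member by subfamily, with EtOH on the left and CPZ on the right. Ifit2, Ifit3 and Ifit3b have the 3 lowest values in both comparisons, and Slfn2, Ifnar1, Ifnar2 and Ifi27l2a are the 4 filled points above 0 with EtOH. Filled points passed the test, open ones did not, the cross is the untested Ifi44, and the dashed line is the median of all genes tested (-0.82 and -0.33).

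LPS+CPZ against LPS+EtOH compares the added agents with each other. On the deposited scale 29 of 49 members (59.2%) were lower with CPZ than with EtOH and 6 (12.2%) were higher, whereas over all genes tested 15.2% were lower and 61.4% were higher. The members' median log2 change was -1.02, beside 0.55 for all genes. The 6 higher members were Mx2, Oasl1, Ifi203, Iigp1, Bst2 and Phf11d. After median-ratio scaling 37 members were lower and 5 higher, beside 31.4% and 35.6% of all genes, with a median of -1.73. Oasl1 was the 1 of the 6 that did not pass after that scaling. The CPZ libraries lay below the EtOH libraries for 26 members and above them for 9, beside 16% and 62.9% of all genes tested.

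The IFIT proteins bind foreign RNA and block its translation, and their genes lie together on chromosome 19. Ifit2 was at 78.9, 89.8 and 53.2 FPKM in the LPS libraries, at 1.74, 2.17 and 1.24 in the EtOH libraries and at 2.56, 2.31 and 2.81 in the CPZ libraries. The LPS libraries were all far above the others, and the CPZ libraries lay just above the EtOH libraries. The mean fell from 74.0 ± 18.8 FPKM (SD, n = 3) to 1.72 ± 0.470 with EtOH (2.32% of LPS, log2 change -4.77 ± 0.19 SE, limma adjusted p = 2.95e-08) and to 2.56 ± 0.249 with CPZ (-4.36 ± 0.19, adjusted p = 9.32e-08). The change between the agents was 0.40 ± 0.19, which did not pass (limma adjusted p = 0.0795) except without LPS+EtOH replicate 2 (0.52, adjusted p = 0.0481), and it was -0.12 after median-ratio scaling.

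Ifit3, whose human counterpart binds IFIT1 and strengthens its hold on RNA, was at 259, 393 and 147 FPKM with LPS, 14.0, 17.4 and 5.55 with EtOH and 7.42, 5.11 and 3.73 with CPZ. The treated groups overlapped each other and stood far below LPS. Its log2 change was -4.35 ± 0.42 with EtOH and -5.31 ± 0.42 with CPZ, the lowest value of any member in that comparison. Ifit1, which recognises RNA caps that lack the host's methyl marks, went from 183 ± 61.3 FPKM to 29.3 ± 7.58 with EtOH and 19.5 ± 2.70 with CPZ, and Ifit3b changed by -3.57 ± 0.43 and -4.83 ± 0.43 on the log2 scale. Transcripts of Ifit3 shared 51.2% of their 50-base words with Ifit3b, so the split of fragments between these copies is uncertain. Between the agents, Ifit3b was lower with CPZ than with EtOH (-1.26 ± 0.43, limma adjusted p = 0.0213), a call that was lost without LPS+EtOH replicate 1 or 2 or LPS+CPZ replicate 3. Ifit1 (-0.53) and Ifit3 (-0.97) did not pass in that comparison as deposited and passed as lower after median-ratio scaling (-1.28 and -1.66). Both also passed without LPS+EtOH replicate 3 (-0.76 and -1.41), and Ifit3 without LPS+CPZ replicate 1 (-1.18).

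ISG15 is a ubiquitin-like protein that is attached to other proteins, HERC6 is the mouse ligase that attaches it, and USP18 removes it and also restrains the interferon receptor. Isg15 was the member with the second highest mean with LPS, at 445, 531 and 325 FPKM, against 185, 264 and 183 with EtOH and 107, 169.7 and 199.7 with CPZ. As deposited, both treated groups lay below LPS and overlapped each other. On the deposited scale it was lower with EtOH (-1.03 ± 0.26, limma adjusted p = 0.00328), but the change was 0.063 after median-ratio scaling, whereas with CPZ it was -1.46 ± 0.26 and -1.14 on the respective scales. Usp18 was at 27.6, 36.6 and 18.9 FPKM with LPS, 10.7, 7.73 and 8.32 with EtOH and 3.19, 2.32 and 2.45 with CPZ, so that the 3 groups formed 3 separate levels. It fell with CPZ against LPS (-2.93 ± 0.22) and against EtOH (-1.44 ± 0.22, limma adjusted p = 1.43e-04), and with EtOH against LPS only on the deposited scale (-1.50, and -0.47 after scaling, not called). Herc6 fell with either agent, with log2 changes of -2.57 ± 0.24 for EtOH and -2.80 ± 0.24 for CPZ. Between the agents only Usp18 of these 3 genes passed on the deposited scale, where 15.2% of all genes tested were lower. After median-ratio scaling all 3 were lower with CPZ than with EtOH, beside 31.4% of all genes.

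Rsad2 encodes viperin, which makes a chain-terminating nucleotide, and the adjoining Cmpk2 encodes the kinase that supplies its substrate, so the pair is often discussed as 1 unit. Rsad2 was at 318, 364 and 198 FPKM with LPS, 78.4, 70.2 and 54.2 with EtOH and 85.3, 81.7 and 83.5 with CPZ, and Cmpk2 at 25.2, 21.0 and 12.5 FPKM with LPS, 4.50, 3.63 and 5.09 with EtOH and 1.37, 0.884 and 1.32 with CPZ. For both genes all treated libraries lay below all LPS libraries, but the order of the agents differed. Rsad2 changed by 0.32 ± 0.22 from EtOH to CPZ and did not pass (95% interval -0.16 to 0.80), with -0.45 after median-ratio scaling. Cmpk2 was lower with CPZ than with EtOH (-1.30 ± 0.22, limma adjusted p = 3.61e-04). Isg20, an exonuclease of RNA, was at 61.3, 79.7 and 68.5 FPKM with LPS, 33.5, 32.1 and 34.7 with EtOH and 11.5, 12.1 and 11.4 with CPZ, 3 separate levels with little spread. It was lower with EtOH on the deposited scale (-1.03) and at 0.042 after scaling, and lower with CPZ on both (-2.48 and -2.15).

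The Mx proteins are dynamin-like GTPases that trap viral ribonucleoproteins. Mx1 was at 14.8, 8.40 and 8.68 FPKM with LPS, 0.709, 0.573 and 0.465 with EtOH and 0.776, 0.425 and 1.04 with CPZ. The treated groups overlapped and stayed near or below 1 FPKM, where the pseudocount of 1 shrinks a fold change. Mx2 was at 6.34, 6.09 and 4.78 FPKM with LPS, 0.790, 0.788 and 0.406 with EtOH and 1.29, 2.26 and 2.91 with CPZ, with the CPZ libraries between the other groups and overlapping neither. Mx1 fell with EtOH (-2.84 ± 0.20) and with CPZ (-2.71 ± 0.20), and Mx2 did so too (-2.02 ± 0.20 and -1.12 ± 0.20). Mx2 was higher with CPZ than with EtOH (0.90 ± 0.20, limma adjusted p = 0.00172).

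**Figure D3:**
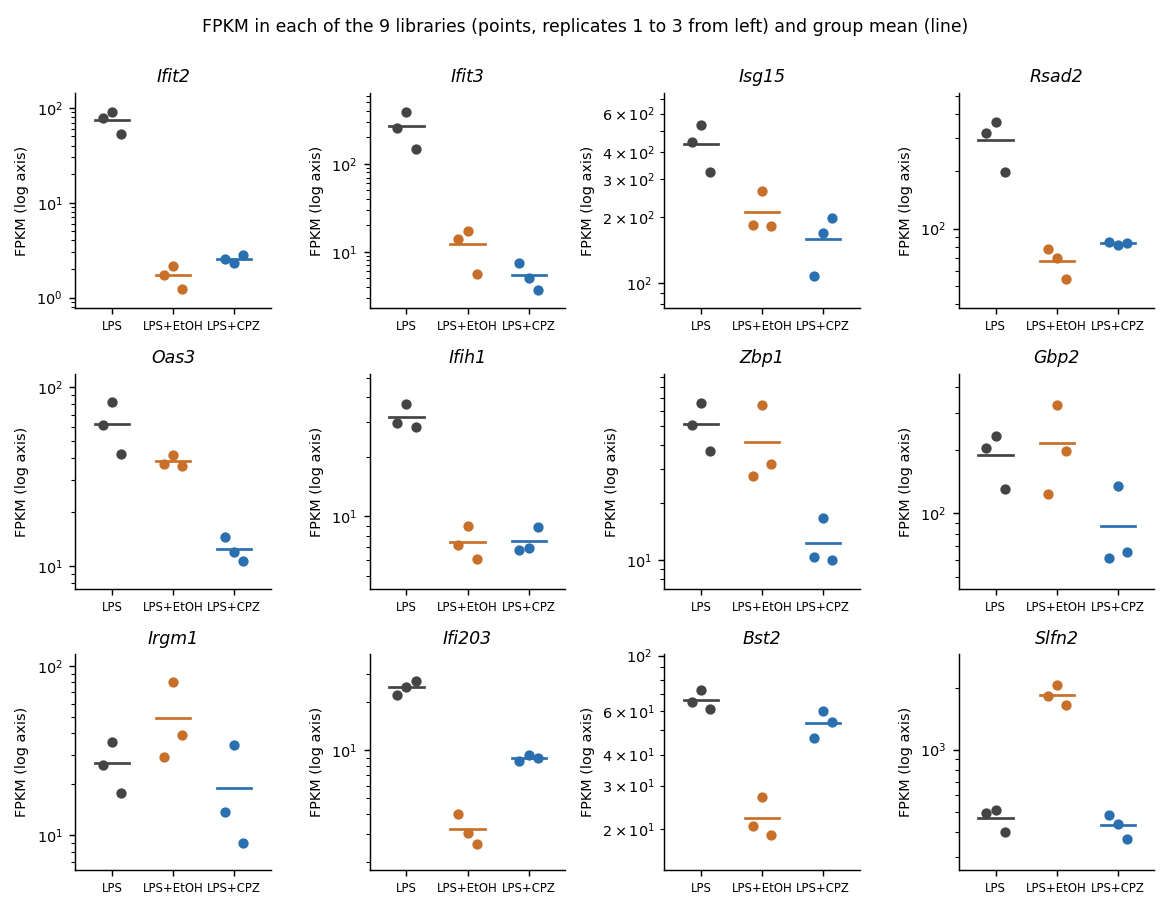
FPKM of selected members in each of the 9 libraries on a log axis, with 1 point per library and a line at the group mean. For Ifit2 and Ifit3 both treated groups lie far below LPS, for Slfn2 the EtOH libraries lie above all others, for Ifi203 and Bst2 the CPZ libraries lie between the groups, and for Oas3 they lie below both.

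The OAS enzymes make oligoadenylates that activate RNase L, and the OAS-like proteins act on RNA sensing and on IRF7 translation. Oas3 was at 61.5, 82.4 and 41.9 FPKM with LPS, 37.2, 41.3 and 36.2 with EtOH and 14.5, 11.9 and 10.6 with CPZ. Its EtOH libraries lay a little below LPS and its CPZ libraries far below both. The change with CPZ was -2.20 ± 0.21 against LPS and -1.57 ± 0.21 against EtOH (limma adjusted p = 7.50e-05). With EtOH, Oas1a (-0.95), Oas1g (-0.57), Oas2 (-0.72) and Oas3 (-0.63) were lower on the deposited scale, yet after median-ratio scaling their changes were 0.13, 0.48, 0.34 and 0.44. The calls of Oas1g and Oas2 were lost without LPS replicate 1 or 2 or LPS+EtOH replicate 1 or 3, and that of Oas3 without LPS replicate 2, which lowered the Oas2 change to -0.41 and the Oas3 change to -0.40. Oasl2 did not pass with EtOH (-0.62, and 0.46 after scaling), except as lower without LPS replicate 3 (-0.91) or LPS+EtOH replicate 2 (-0.86), and fell with CPZ (-1.93 ± 0.28).

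Oasl1 differed from the other 5 OAS members in the order of the groups. It was at 67.0, 101 and 50.9 FPKM with LPS, 23.6, 27.4 and 19.6 with EtOH and 47.2, 48.6 and 52.9 with CPZ, so the CPZ libraries overlapped LPS and stood above every EtOH library. It was lower with EtOH on the deposited scale (-1.55 ± 0.22; -0.48 after median-ratio scaling, not called), did not pass with CPZ (-0.50 ± 0.22) except without LPS replicate 3 (-0.72, limma adjusted p = 0.00884), and was higher with CPZ than with EtOH (1.06 ± 0.22, adjusted p = 0.00129; 0.30 after median-ratio scaling, not called). Oas1a shared 57.6% of its 50-base words with Oas1g, and the division of fragments between them is uncertain.

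Among the sensors, Ifih1 (MDA5) and Ddx58 (RIG-I) detect viral RNA, Dhx58 (LGP2) tunes both, Eif2ak2 (PKR) stops translation on double-stranded RNA, and Zbp1 binds Z-form nucleic acids and triggers cell death. Ddx58 was at 33.9, 40.3 and 30.3 FPKM with LPS, 14.6, 14.7 and 15.0 with EtOH and 6.25, 4.98 and 4.91 with CPZ, while Ifih1 was at 29.7, 37.0 and 28.4 FPKM with LPS, 7.14, 8.95 and 6.11 with EtOH and 6.74, 6.95 and 8.90 with CPZ. Ddx58 stepped down from LPS to EtOH to CPZ, whereas the EtOH and CPZ libraries of Ifih1 overlapped as deposited. From EtOH to CPZ, 3 of the 5 sensors were lower on the deposited scale, beside 15.2% of all genes tested. After median-ratio scaling all 5 were lower, beside 31.4% of all genes. With CPZ all 5 sensors fell, with log2 changes of -2.49 ± 0.13 for Ddx58, -1.94 ± 0.16 for Ifih1, -2.12 ± 0.16 for Dhx58, -2.30 ± 0.15 for Eif2ak2 and -1.97 ± 0.32 for Zbp1. Of all genes tested, 48.4% were lower with CPZ. With EtOH 4 of the 5 were lower on the deposited scale, of which Ifih1 (-0.95) and Eif2ak2 (-1.07) remained lower after median-ratio scaling. Of all genes tested, 64.6% were lower with EtOH as deposited and 42.1% after scaling, so these EtOH counts of a set of 5 do not stand apart from the background. Zbp1 did not pass with EtOH (-0.37 ± 0.32, and 0.71 after scaling), but passed as lower without LPS+EtOH replicate 2 (-0.74, limma adjusted p = 0.0267). Its EtOH libraries held 27.4, 65.0 and 32.0 FPKM, of which replicate 2 was at the level of LPS (50.6, 66.1 and 37.2).

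The PYHIN proteins bind DNA in the nucleus and cytosol, and the 3 members lie close together on chromosome 1 but moved apart. Ifi205 was at 53.5, 31.7 and 27.6 FPKM with LPS, 3.03, 4.62 and 2.27 with EtOH and 4.44, 4.70 and 5.13 with CPZ. Ifi204 was at 239, 226 and 149.9 FPKM with LPS, 249, 289 and 205 with EtOH and 111, 98.1 and 71.1 with CPZ, so its EtOH libraries overlapped LPS and its CPZ libraries lay below both. Ifi205 fell with EtOH (-3.14 ± 0.25) and with CPZ (-2.69 ± 0.25). Ifi204 did not pass with EtOH on the deposited scale (0.29) and was higher after median-ratio scaling (1.38, limma adjusted p = 4.68e-04). With CPZ it fell (-1.12 ± 0.22). Ifi203, at 22.1, 25.0 and 27.3 FPKM with LPS, fell to 3.98, 3.02 and 2.60 with EtOH and to 8.55, 9.34 and 8.92 with CPZ, and was higher with CPZ than with EtOH (1.25 ± 0.14, adjusted p = 1.85e-05). Ifi204 and Ifi205 shared 14.8% and 18.5% of their 50-base words with Ifi211.

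The guanylate-binding proteins (GBPs) and the immunity-related GTPases (IRGs) coat and break the vacuoles of intracellular bacteria and parasites, and they answer to interferon-gamma as well as to type I interferon. Gbp2 was at 204, 234 and 130.4 FPKM with LPS, 124, 326 and 197 with EtOH and 61.5, 135 and 65.3 with CPZ. Its groups overlapped in both comparisons with LPS, and the spread within the treated groups was wide. Gbp2 did not pass with EtOH (0.12 ± 0.38; 1.21 after median-ratio scaling, called higher), and its lower level with CPZ (-1.16 ± 0.38, limma adjusted p = 0.0199) was lost without LPS replicate 1 or 2 or LPS+CPZ replicate 1 or 3 and after that scaling (-0.84). Gbp5 was at 76.3, 65.6 and 42.1 FPKM with LPS, 13.2, 45.7 and 27.5 with EtOH and 6.82, 12.3 and 5.19 with CPZ. It fell with CPZ (-2.81 ± 0.41, adjusted p = 1.52e-04), and its call with EtOH (-1.18 ± 0.41) was lost without LPS replicate 1 or 2 or LPS+EtOH replicate 1 and after scaling (-0.12). Gbp3 was the GBP that fell with EtOH on both scales (-2.23 and -1.23), and it fell with CPZ too (-1.70 ± 0.28).

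Gbp4 was lower with EtOH on the deposited scale (-1.26, and -0.37 after scaling, not called) and did not pass with CPZ (-0.61) except without LPS+CPZ replicate 2 (-0.89, limma adjusted p = 0.0114). Gbp7 did not pass with EtOH (-0.41, and 0.62 after scaling) and fell with CPZ (-1.43 ± 0.37). Between the agents Gbp2, Gbp5 and Gbp7 were lower with CPZ than with EtOH (-1.28, -1.63 and -1.02). Of these calls, that of Gbp2 was lost without LPS+EtOH replicate 2 (-0.93) and that of Gbp7 without LPS+EtOH replicate 2 or 3 or LPS+CPZ replicate 1 or 3.

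Iigp1 (Irga6) is an effector IRG that loads onto pathogen vacuoles, while Irgm1, Irgm2 and Igtp (Irgm3) are regulators that guard the host's own membranes. Iigp1 was at 2.81, 2.51 and 1.91 FPKM with LPS, 0.0427, 0.132 and 0.201 with EtOH and 1.22, 2.45 and 2.19 with CPZ, and Irgm1 at 26.2, 35.8 and 17.9 FPKM with LPS, 29.1, 80.9 and 39.1 with EtOH and 13.7, 34.2 and 9.06 with CPZ. Iigp1 was thus near 0 in the EtOH libraries but overlapped LPS in the CPZ libraries, while Irgm1 had its highest value in an EtOH library. Iigp1 fell with EtOH (-1.59 ± 0.17, limma adjusted p = 6.13e-06), did not pass with CPZ (-0.23 ± 0.17) and was higher with CPZ than with EtOH (1.37 ± 0.17, adjusted p = 4.00e-05). On the log2(FPKM + 1) scale that was the largest such value among the members. The pseudocount compresses values this low, and by mean FPKM the CPZ level was 1562% of EtOH for Iigp1 and 2345% for Phf11d. Igtp, Irgm1, Irgm2 and Ifi47 did not pass with EtOH on the deposited scale (0.45, 0.80, -0.37 and -0.017), and after median-ratio scaling, at 1.51, 1.86, 0.69 and 1.02, all but Irgm2 were called higher.

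With CPZ, Irgm2 fell (-1.66 ± 0.32), Ifi47 (-1.27 ± 0.41) and Igtp (-0.92 ± 0.38) passed as lower, and Irgm1 did not pass (-0.62 ± 0.47). The call of Igtp was lost without LPS replicate 1 or 2 or LPS+CPZ replicate 1 or 3, and that of Ifi47 without LPS replicate 2 or LPS+CPZ replicate 3. Both were also lost after median-ratio scaling (-0.61 and -0.95). Without LPS+CPZ replicate 2 Irgm1 passed as lower (-1.13, limma adjusted p = 0.0314). Between the agents Igtp, Irgm1, Irgm2 and Ifi47 were each lower with CPZ than with EtOH (-1.37, -1.41, -1.29 and -1.25), although the calls of Irgm1 and Ifi47 were each lost without LPS+EtOH replicate 2 or LPS+CPZ replicate 3, that of Irgm1 also without LPS+CPZ replicate 1 and that of Ifi47 without LPS+EtOH replicate 3.

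In all 3 groups replicate 2 stood above the other libraries for most GBP and IRG genes, and in LPS and LPS+EtOH for most members. In LPS replicate 2, 38 of 49 members were highest, among them 4 of 5 GBP and 4 of 5 IRG genes, with medians 0.37 and 0.54 log2 units above the mean of the other 2 libraries. In LPS+EtOH replicate 2, 34 of 49 members were highest, among them all 6 OAS, 9 of 10 other effectors and 3 of 4 IFIT genes. There all 5 GBP and 4 of 5 IRG genes had the highest value of their group, and their median lay 1.06 and 0.64 log2 units above the other libraries. In LPS+CPZ replicate 2, 20 of 49 members were highest, among them all 5 GBP and all 5 IRG genes, with medians 0.93 and 0.97 above the other libraries. Over all genes tested, 40.8% were highest in that LPS library, 23.8% in that EtOH library and 43.8% in that CPZ library. In LPS+CPZ replicate 2, 0 of 4 IFIT genes and 1 of 6 OAS genes were highest. Of the 5 mast cell markers, 4 were highest in LPS replicate 2, with a median 0.46 log2 units above the other libraries, and all 5 in LPS+EtOH replicate 2 (1.01) and LPS+CPZ replicate 2 (0.77), and the 5 T and NK cell markers tested were highest in LPS+CPZ replicate 2, by 0.66. The summed mast cell markers ranged from 21.3 to 55.3 FPKM with EtOH and from 11.5 to 28.9 with CPZ, and the summed T and NK cell markers from 0.326 to 0.576 and from 6.63 to 12.9 FPKM. The part of these cells in the GBP and IRG values was not tested. LPS replicate 3, the library with 29.4% globin, was highest for 1 member and lay 0.50 below the others at the median. It was also highest for all 7 B cell, all 5 tested T and NK cell, all 5 red blood cell and 6 of 7 neutrophil markers. Of the macrophage markers tested, 1 of 6 was highest there, and of the mast cell markers 1 of 5. The part of these cells in its member values was not tested. Over all genes tested, 34.5% were highest in that library, and the median lay 0.03 above the others.

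**Figure D4:**
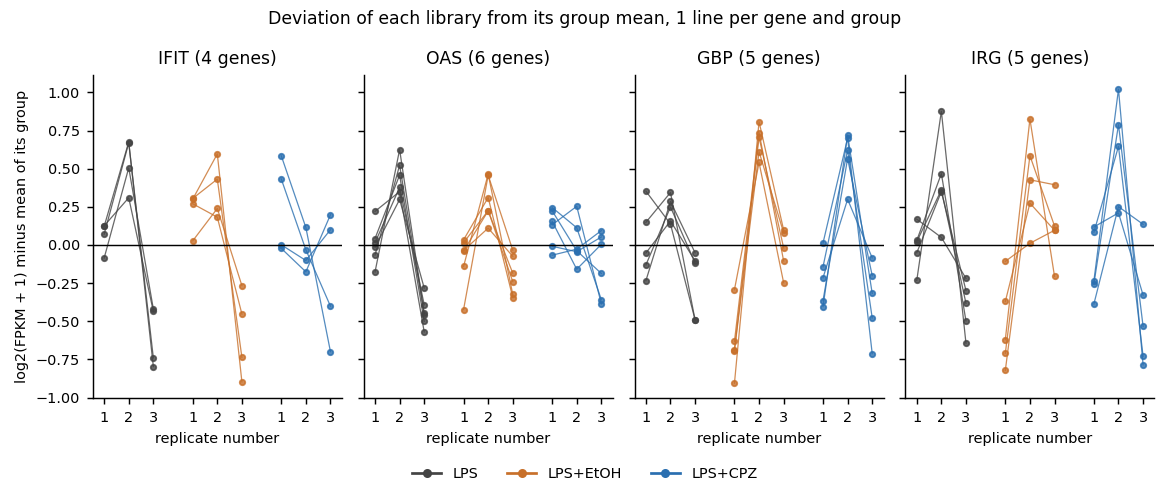
Log2(FPKM + 1) of each library minus the mean of its group, for the 4 IFIT, 6 OAS, 5 GBP and 5 IRG genes. The x axis gives the replicate number, and a line joins the 3 libraries of a gene only to identify it. The GBP and IRG points of replicate 2 lie above 0 in both treated groups, while those of the IFIT genes in LPS+CPZ replicate 2 lie on either side of 0.

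Slfn2, a Schlafen family gene linked to the quiescence of immune cells, had the highest mean FPKM of the members with LPS, although Isg15 was above it in replicate 2, and had the largest rise of all members. It was at 494, 509 and 399 FPKM with LPS, 1821, 2052 and 1641 with EtOH and 483, 435 and 368 with CPZ. Every EtOH library was far above all others, and the CPZ libraries overlapped LPS. Its log2 change was 1.98 ± 0.16 with EtOH (limma adjusted p = 9.51e-07), -0.13 ± 0.16 with CPZ (not called, and 0.19 after median-ratio scaling) and -2.10 ± 0.16 from EtOH to CPZ (adjusted p = 2.23e-06). Slfn2 weighed so much in sums that the 50 members together held 3280 to 4481 FPKM with EtOH and 2955 to 4794 with LPS, but without it 1639 to 2429 and 2556 to 4285. The summed neutrophil markers were also higher in the EtOH libraries, as given above, and their part in this rise was not tested.

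Ifi27l2a, a mitochondrial protein, was at 158, 182 and 151 FPKM with LPS, 299.9, 333 and 159 with EtOH and 51.8, 54.7 and 34.4 with CPZ. The third EtOH library lay among the LPS values, and the CPZ libraries were all below. It rose with EtOH at the edge of the threshold (0.62 ± 0.27, limma adjusted p = 0.0496). That call was lost when values were rescaled to TPM or after leaving out the globin genes. It was also lost without LPS replicate 1, 2 or 3 or LPS+EtOH replicate 1 or 2 (0.42 to 0.70 in log2 change). With CPZ Ifi27l2a fell, with a change of -1.80 ± 0.27 against LPS and of -2.42 ± 0.27 against EtOH, the lowest value of any member in the latter comparison.

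Bst2, or tetherin, holds budding virions at the cell surface. It was at 64.8, 72.8 and 60.9 FPKM with LPS, 20.7, 26.9 and 19.1 with EtOH and 46.4, 60.1 and 53.9 with CPZ, so the CPZ libraries lay close under LPS and well above EtOH. It fell with EtOH (-1.54 ± 0.15, and -0.48 after median-ratio scaling, both called), did not pass with CPZ (-0.31 ± 0.15, and 0.0099 after scaling), and was higher with CPZ than with EtOH (1.24 ± 0.15, limma adjusted p = 3.84e-05). Phf11d, a PHD-finger gene, was at 6.54, 8.05 and 7.53 FPKM with LPS, 0.0371, 0.0554 and 0.0360 with EtOH and 1.02, 0.694 and 1.29 with CPZ, 3 separate levels with EtOH lowest. It fell with EtOH (-3.00 ± 0.13) and with CPZ (-2.07 ± 0.13) on the log2 scale, where the pseudocount of 1 understates the change of values this low, and it was higher with CPZ than with EtOH (0.93 ± 0.13, adjusted p = 8.11e-05).

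Parp14, an ADP-ribosyltransferase, was at 153, 161 and 108 FPKM with LPS, 63.0, 90.7 and 69.7 with EtOH and 17.7, 20.8 and 13.1 with CPZ, again without overlap between groups but with CPZ lowest. The change with CPZ was -2.96 ± 0.21 against LPS and -2.06 ± 0.21 against EtOH (limma adjusted p = 1.13e-05), and that with EtOH was -0.91 as deposited and 0.18 after scaling. Trim30a, a TRIM protein that restrains TLR signalling, Xaf1, which promotes apoptosis, and Daxx, a histone chaperone, showed the same order of groups. Their log2 changes with CPZ were -2.13 ± 0.18, -1.95 ± 0.19 and -1.57 ± 0.15, and those with EtOH -1.41, -0.69 and -0.84 (after scaling -0.32, 0.32 and 0.19). Ifi35, which binds NMI, was lower with EtOH (-1.21, and -0.15 after scaling, not called) and fell with CPZ (-1.32 ± 0.15). Rtp4, a Golgi chaperone of receptors, did not pass with EtOH (0.26, and 1.33 after scaling, called higher) and fell with CPZ (-1.32 ± 0.29). Ifi44, a GTP-binding protein, was at 0.799, 1.12 and 0.447 FPKM with LPS and 0.121, 0.0831 and 0.295 with CPZ, and with EtOH at 0.0223 and 0.0599 FPKM, with the third library listed at 0. Its LPS libraries lay above all others, but these levels were too low for the test.

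**Figure D5:**
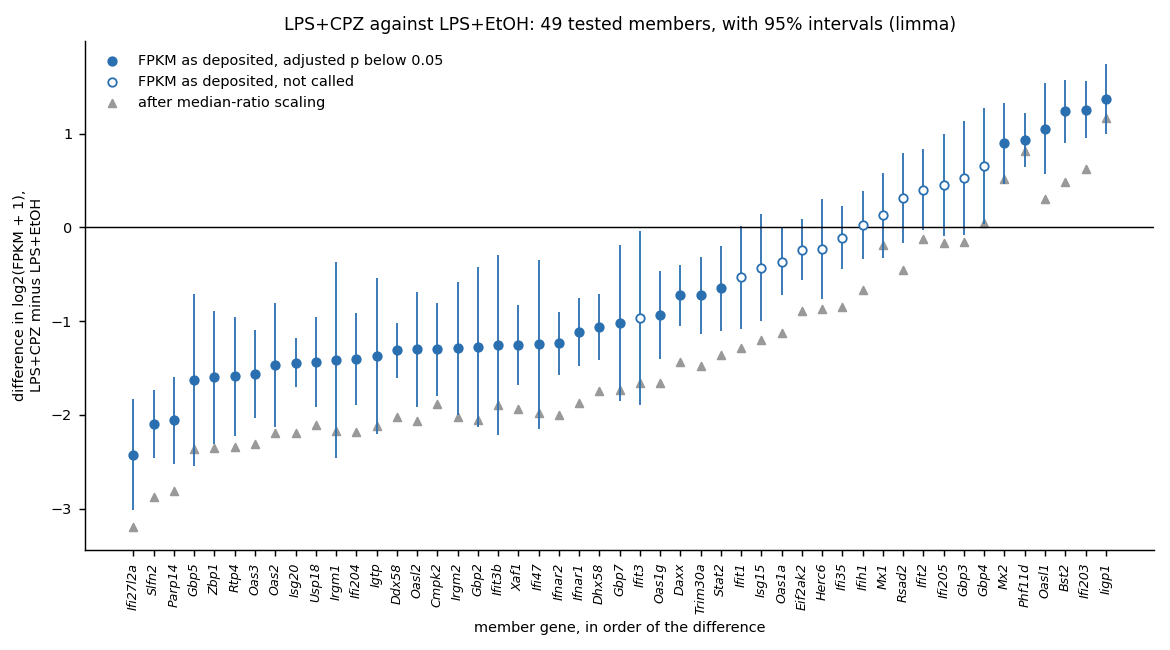
Log2 change in FPKM + 1 of LPS+CPZ against LPS+EtOH for the 49 tested members with 95% intervals from limma, in order of the value, with filled points past the threshold and grey triangles for the value after median-ratio scaling. The values run from -2.42 for Ifi27l2a to 1.37 for Iigp1, and 29 members pass as lower and 6 as higher.

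The receptor chains and Stat2 act upstream of the other members. Ifnar2 was at 37.9, 33.3 and 26.2 FPKM with LPS, 71.7, 60.9 and 66.3 with EtOH and 31.9, 25.4 and 25.5 with CPZ, and Ifnar1 at 36.2, 30.7 and 29.3 FPKM with LPS, 52.4, 39.6 and 48.4 with EtOH and 26.2, 19.7 and 17.7 with CPZ. For both chains every EtOH library was above every other library. Ifnar2 rose with EtOH (1.02 ± 0.15, limma adjusted p = 9.09e-05) and did not pass with CPZ (-0.22 ± 0.15, and 0.092 after median-ratio scaling). Ifnar1 rose with EtOH (0.53 ± 0.16, adjusted p = 0.0118), a call lost when values were rescaled to TPM (0.43) or after leaving out the globin genes (0.22), and it was lower with CPZ (-0.59 ± 0.16) on the deposited scale but not after median-ratio scaling (-0.28, not called). Both chains were lower with CPZ than with EtOH (-1.12 and -1.24). Stat2 was at 21.9, 25.7 and 16.6 FPKM with LPS, 9.93, 13.1 and 8.86 with EtOH and 7.53, 6.98 and 4.74 with CPZ. It fell with CPZ (-1.59 ± 0.20, adjusted p = 5.90e-05), and its lower level with EtOH (-0.94) was at 0.084 after scaling.

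Genes that induce interferon, outside the 50 members, were taken from a list of 15, of which 11 were tested. With EtOH 3 were higher and 8 lower, with CPZ 1 was higher and 5 lower, and from EtOH to CPZ 5 were higher and 3 lower (median log2 change -0.77, -0.11 and -0.068). These were 27.3% higher and 72.7% lower with EtOH, 9.09% and 45.5% with CPZ, and 45.5% and 27.3% between the agents, beside 19% and 64.6%, 20.7% and 48.4%, and 61.4% and 15.2% of all genes tested, so the EtOH shares and the lower share with CPZ stood near the background. After median-ratio scaling the counts were 4 higher and 4 lower, 3 and 4, and 3 and 6, with medians of 0.19, 0.18 and -0.56. Of all genes tested, 37.8% were then higher and 42.1% lower with EtOH, 27.5% and 34.1% with CPZ, and 35.6% and 31.4% between the agents. Ifnb1, the gene of interferon-beta, was at 3.88, 0.559 and 1.07 FPKM with LPS, at 0.162 in 1 EtOH library and listed at 0 in the other EtOH libraries, and at 0.122, 0.112 and 0.0744 with CPZ, and it was not tested. Its highest value lay in LPS replicate 1, and its relation to the members was not tested. Tlr4, the LPS receptor, was at 2.38, 7.69 and 1.57 FPKM with LPS, 32.7, 34.0 and 30.8 with EtOH and 3.27, 14.6 and 11.4 with CPZ. It rose with EtOH (2.99 ± 0.50, limma adjusted p = 2.01e-04) and did not pass with CPZ (1.15 ± 0.50; 1.34 after scaling, called higher). Ticam2, the gene of TRAM, fell with EtOH (-2.52 ± 0.12) and with CPZ (-2.00 ± 0.12), while Tbk1 rose with each agent (1.40 ± 0.17 and 1.01 ± 0.17, limma adjusted p = 1.41e-05 and 3.21e-04). Ikbke, a kinase related to TBK1, rose with EtOH (1.47 ± 0.15). Mavs and Ticam1, adaptors of RNA sensing and of TLR signalling, were higher with CPZ than with EtOH (1.78 ± 0.17 and 1.45 ± 0.14).

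Of 16 genes of the receptor and JAK-STAT pathway, all tested, 4 were higher and 5 lower with EtOH, 1 higher and 12 lower with CPZ, and 3 higher and 11 lower from EtOH to CPZ (medians -0.063, -0.83 and -0.76). The lower genes were 31.2% of the list with EtOH, 75% with CPZ and 68.8% between the agents, beside 64.6%, 48.4% and 15.2% of all genes tested, and the higher genes 25%, 6.25% and 18.8%, beside 19%, 20.7% and 61.4%. After median-ratio scaling 11 of the 16 were higher and 2 lower with EtOH, 1 and 8 with CPZ, and 0 and 14 between the agents. The medians were 1.01, -0.52 and -1.51. The scaled shares of all genes tested were 37.8% higher and 42.1% lower, 27.5% and 34.1%, and 35.6% and 31.4%. Irf9, the DNA-binding subunit of ISGF3, was at 21.8, 24.3 and 20.8 FPKM with LPS, 25.2, 28.7 and 23.1 with EtOH and 12.6, 12.7 and 8.64 with CPZ. Its EtOH libraries overlapped LPS, and its CPZ libraries lay below both. Irf9 fell with CPZ (-0.94 ± 0.15), and with EtOH it did not pass on the deposited scale (0.19; 1.25 after scaling, called higher). Irf7, which amplifies interferon production, was lower with EtOH on the deposited scale (-1.42 ± 0.22; -0.36 after scaling, not called) and fell with CPZ (-2.20 ± 0.22). Socs3, an inhibitor of cytokine signalling, rose with EtOH (1.58 ± 0.21) and was lower with CPZ than with EtOH (-2.48 ± 0.21). Ptpn6, the phosphatase SHP-1, fell with CPZ (-2.75 ± 0.17, limma adjusted p = 4.80e-07), in contrast to Jak1, which rose (0.30 ± 0.11, adjusted p = 0.0358).

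A list of 42 other interferon-stimulated genes, 41 of them tested, held 25 lower and 5 higher with EtOH, 32 lower and 1 higher with CPZ, and 14 lower and 6 higher from EtOH to CPZ (medians -0.86, -1.44 and -0.41). The lower genes were 61% of the list with EtOH, near the 64.6% of all genes tested, 78% with CPZ (48.4% of all genes) and 34.1% between the agents (15.2%), and the higher genes 12.2%, 2.44% and 14.6%, beside 19%, 20.7% and 61.4%. After median-ratio scaling 13 were higher and 16 lower with EtOH, 1 and 27 with CPZ, and 3 and 27 from EtOH to CPZ (medians 0.21, -1.12 and -1.08). Beside these stood 37.8% and 42.1%, 27.5% and 34.1%, and 35.6% and 31.4% of all genes tested. The scaled counts with EtOH were thus near the background. Pnpt1, a mitochondrial RNA exonuclease, and Ifit1bl1, an IFIT paralogue, fell with EtOH (-2.10 ± 0.10 and -2.65 ± 0.14). Sp100, a nuclear body protein, fell with CPZ (-2.47 ± 0.14), and Cd274 (PD-L1) was the gene of the list that rose (0.56 ± 0.20, limma adjusted p = 0.0271). Ccl5, a chemokine, was at 188, 131 and 95.4 FPKM with LPS, 4.14, 5.17 and 4.44 with EtOH and 55.3, 84.0 and 94.4 with CPZ, and was higher with CPZ than with EtOH (3.79 ± 0.25). Slfn1 was lower with CPZ than with EtOH (-2.56 ± 0.18), the same direction as its relative Slfn2.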

How the data were processed

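The deposited table gives FPKM per gene for 9 libraries. Per the labels' protocols, RNA of 3 samples was pooled for each library in equal amounts, and strand-specific TruSeq libraries were sequenced on an Illumina NovaSeq. Per the submitters' processing notes the authors used FastQC 0.11.2, STAR and StringTie and named the build hg38, although 55154 of the 55335 gene IDs are in the GENCODE mouse annotation. The settings and the use of strand in counting are not given in the sources used here. FPKM are relative to each library's total, so a few abundant genes shift all others. Total FPKM were 302126 to 363356 a library. The low values fell on whole steps too seldom (23.1 to 24.9% within 2%) to recover fragments, so the depth is unknown and no count test was run.

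The 11721 genes that reached 1 FPKM in 3 or more libraries were fitted as log2(FPKM + 1) by limma 3.58.1 in R 4.3.3, with group terms over all 9 libraries, a trend and 6 residual degrees of freedom. Benjamini-Hochberg adjustment covered all of them, with 0.05 as the threshold. The log2(FPKM + 1) scale understates changes of low genes. The script was tested on simulated data. Replicates are pools, so p-values measure only the spread between pools. The members and all lists were chosen with earlier results of these data known. All 50 members may be named, and of the other pathway genes the 3 with the smallest adjusted p in each direction and comparison, with Ifnb1, Irf9, Irf7 and Tlr4, while 1 further gene of that rule is not reported here. Alternatives were other pseudocounts, filters and scalings (median ratio over 16309 genes, TPM, quantile, without globin), no trend, only the groups compared, a replicate block and leaving out each library. Motifs and shared 50-base words were counted in Python 3.11.15.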

Additional observations from a re-analysis of the deposited data

How the results depend on the processing

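Of the single settings tried, median-ratio scaling changed the most of the 147 single-gene results. The sign reversed in 24, and of the others 13 lost and 12 gained their call. Calls that changed together with a reversed sign, such as the lower call of Isg15 with EtOH, are counted only among the 24. For the members called in LPS+EtOH against LPS, median-ratio scaling gave 17 lower and 10 higher with a median log2 change of -0.044, and TPM and leaving out the globin genes each gave 2 higher. For the members in LPS+CPZ against LPS, the median was -1.38 with a pseudocount of 5, -1.43 after median-ratio scaling and -2.07 without globin. For the members in LPS+CPZ against LPS+EtOH it was -0.68 with a pseudocount of 5 and -1.73 after median-ratio scaling. The direction reversed after median-ratio scaling in LPS+EtOH against LPS for Isg15 (0.063), Isg20 (0.042), Oas1a (0.13), Oas1g (0.48), Oas2 (0.34), Oas3 (0.44), Oasl2 (0.46), Stat2 (0.084), Gbp7 (0.62), Zbp1 (0.71), Ifi47 (1.02), Irgm2 (0.69), Xaf1 (0.32), Parp14 (0.18) and Daxx (0.19), in LPS+CPZ against LPS for Bst2 (0.0099), Slfn2 (0.19) and Ifnar2 (0.092), and between the agents for Ifit2 (-0.12), Mx1 (-0.18), Rsad2 (-0.45), Ifih1 (-0.67), Gbp3 (-0.15) and Ifi205 (-0.17). Quantile scaling reversed Gbp2 (-0.29), Gbp7 (0.078), Ifi204 (-0.18) and Ifi47 (0.40) with EtOH, Iigp1 with CPZ (0.078), and Ifit2 (-0.21), Mx1 (-0.45), Ifih1 (-0.41) and Ifi205 (-0.12) between the agents. Leaving out globin reversed Gbp2 (-0.19), Ifi204 (-0.021) and Rtp4 (-0.039) with EtOH. The cause of these changes was not tested. Without an abundance filter 14 of 147 single-gene results lost their call, and eBayes without trend and a filter of 5 FPKM changed none of those they tested.

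Leaving out 1 library at a time gave, for the members, 31 to 37 lower and 3 to 4 higher with EtOH (median -1.22 to -0.93), 39 to 44 lower and 0 higher with CPZ (median -1.89 to -1.62), and 23 to 30 lower and 6 to 10 higher between the agents (median -1.09 to -0.78), the 10 without LPS+EtOH replicate 2. Between the agents Gbp3, Gbp4 and Ifi205 were also called higher and Stat2 lost its lower call without that library, Gbp4 was called higher without LPS+CPZ replicate 1, Oas1a was called lower without LPS+EtOH replicate 3, and Stat2 lost its call without LPS+CPZ replicate 3. The sign turned for Gbp2 (-0.23 to 0.46), Ifi47 (-0.34 to 0.42) and Rtp4 (-0.023 to 0.41) with EtOH, and for Herc6 (-0.38 to 0.041) and Ifih1 (-0.087 to 0.16, at -0.087 without LPS+EtOH replicate 3) between the agents, none of which was called. With the replicate block the members' counts were 36 lower and 5 higher, 46 and 0, and 31 and 8 in the 3 comparisons, 10 calls gained and none lost. The 10 were Oasl2 (lower) and Irgm1 (higher) with EtOH, Oasl1, Gbp4, Irgm1 and Bst2 (lower) with CPZ, and Ifit3 and Oas1a (lower) and Gbp3 and Gbp4 (higher) between the agents. The deviations of same-numbered libraries from their group means correlated with r from -0.006 to 0.26, and those of differently numbered libraries with r from -0.20 to 0.13. Not every library correlated best with its own number. In the labels, EtOH and CPZ libraries of the same number share the first part of their bracketed name, but no pairing is stated. The numbers were not taken as pairs in the main fit, and these correlations cannot exclude a pairing. If the numbers are pairs, the calls with the replicate block apply. Genes given above as not passed, such as Irgm1 with EtOH (limma adjusted p = 0.00825 with the block), would then pass. Pools of RNA from 3 samples, 3 per group, limit how small a change can be seen, and levels below about 1 FPKM, such as those of Ifi44, Mx1 and Phf11d after treatment, are the most compressed by the pseudocount.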
